A study of Bos taurus with 6 samples.

Results

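Neuregulin and epidermal growth factor (EGF) ligands and the ERBB receptors that bind them were examined in bovine deep zone articular chondrocytes with and without induction of the transcription factor CREB5. The genes were chosen by name, as 10 symbols: the neuregulins NRG1 and NRG2, the EGFR ligands TGFA, HBEGF, AREG, EREG and BTC, and the receptors EGFR, ERBB2 and ERBB3. They occupied 11 of the 27607 gene rows, because NRG1 was listed under 2 Ensembl identifiers. The chondrocytes came from 3 independently collected knees, carried a lentivirus with doxycycline-inducible bovine CREB5 and had been selected in G418 for 11 days. All were then kept for 3 days on low attachment plastic in medium with 10% serum, 20 ng/ml of TGFb2 and 100 ng/ml of TGFa. Of the cultures, 3 had no doxycycline (Dox-) and 3 received 1 µg/ml of it (Dox+), with 1 library made from each. The dose is that of the treatment protocol; the series' design text gives it in mg/ml. Both groups therefore received TGFa protein, itself a ligand of EGFR, throughout the culture, and the virus was present in both.

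ERBB receptors are tyrosine kinases that signal as pairs. EGFR binds the EGF-like ligands, which are made as membrane proteins and released by proteases. ERBB2 binds no ligand by itself and serves as the partner of the others. ERBB3 and ERBB4 are the receptors that bind neuregulins. ERBB3 has little kinase activity of its own and depends on its partner. Downstream lie the RAS and MAP kinase cascade and the PI3 kinase pathway. In cartilage, EGFR signalling is best known from the growth plate and from the superficial layer of the joint surface.

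Values are normalized counts, that is, reads of a gene divided by 1 size factor for each library, and groups are given as mean ± SD with n = 3. The libraries held between 20063379 (Dox+ 3) and 122366790 (Dox+ 2) reads, so 3 reads, taken as the floor of detection, were worth 1.32 to 6.98 normalized counts. This floor and all intervals on reads cover counting error only. CREB5 stood at 308 to 510 in the Dox- and 12413 to 21964 in the Dox+ libraries, so CREB5 was higher in every library labelled Dox+. These reads do not separate the transgene from the cells' own gene. Of the chondrocyte markers, SOX9 at 1885 or more, COL2A1 at 8779 or more and ACAN at 7197 or more were present in all libraries. Not every marker was: CNMD lacked any read for Dox- 2 as well as Dox+ 3. MATN1 had 1 read each for Dox+ 1 and Dox+ 3, below the floor. The chondrocyte list of 8 genes summed to 153385 to 299221 normalized counts in Dox- and to 101924 to 118244 in Dox+ libraries. Of its 7 tested members 2 fell, ACAN and COL9A1, where 0.357% of all tested genes were called lower in limma. With the library number as a block 4 fell, where 1.65% of all tested genes did. In such bulk samples, a change in the share of cells of 1 type and a change in RNA per cell cannot be told apart.

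NRG1, a neuregulin best known from nerve and heart, went from almost no reads in Dox- cells to 919 or more reads in every Dox+ library. ENSBTAG00000004150 was at 2.45, 0 and 0 normalized counts in Dox- 1, 2 and 3 and at 1694, 1110 and 1451 in Dox+ 1, 2 and 3. ENSBTAG00000054057 had no read in any Dox- library and stood at 1161, 456 and 686 in Dox+ 1, 2 and 3. Every Dox+ library was thus far above every Dox- library for both. All that was counted for NRG1 in Dox- cells was 4 reads, all in Dox- 1, against 6156 in Dox+ cells.

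In limma, fitted over 13180 genes with a mean normalized count of at least 10, ENSBTAG00000004150 rose 925-fold (log2 fold change 9.85, SE 0.56, adjusted p = 4.3e-05). For ENSBTAG00000054057 limma gave a log2 fold change of 9.48 (SE 0.52, adjusted p = 4e-05). With 3 reads assumed for each Dox- library, it was at least 284-fold higher. The rows had the fourth and the fifth largest rises in log2 fold change among the genes tested. With the reads of both identifiers summed, NRG1 was at 2.45, 0 and 0 in Dox- 1, 2 and 3 and at 2855, 1567 and 2137 in Dox+ 1, 2 and 3. The summed log2 fold change was 10.46 (95% interval 9.18 to 11.73, limma adjusted p = 3.6e-05). Because Dox- cells had so few reads, its size rests on the added count: it was 11.20 with 0.5 and 8.54 with 5 added in place of 1.

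The 2 identifiers carry the same gene number and the same name, and RefSeq lists 16 transcripts for the gene. Of the summed NRG1 reads, ENSBTAG00000054057 held 40.7% in Dox+ 1 (95% exact binomial interval 38.3 to 43.1), 29.1% in Dox+ 2 (27.6 to 30.7) and 32.1% in Dox+ 3 (29.1 to 35.2). Dox+ 1 had the larger share, and its interval did not overlap the others. The sources used here do not say how reads were divided between the identifiers, so these shares cannot be read as isoform levels. The sum does not depend on that division if no read was counted for both or dropped as shared, which cannot be checked here.

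NRG2, the other neuregulin examined, was close to undetected. It had 3, 0 and 1 reads in Dox- 1, 2 and 3, against 0, 6 and 0 in the Dox+ libraries of those numbers, and its mean of 0.85 kept it below the filter for testing. The remaining neuregulins were no higher: NRG3 had 0 reads in all 6 libraries and NRG4 had 1 read, in Dox+ 2. NRG1 thus supplied nearly all neuregulin reads in Dox+ cells, while in Dox- cells NRG1 and NRG2 had 4 reads each.

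**Figure D1:**
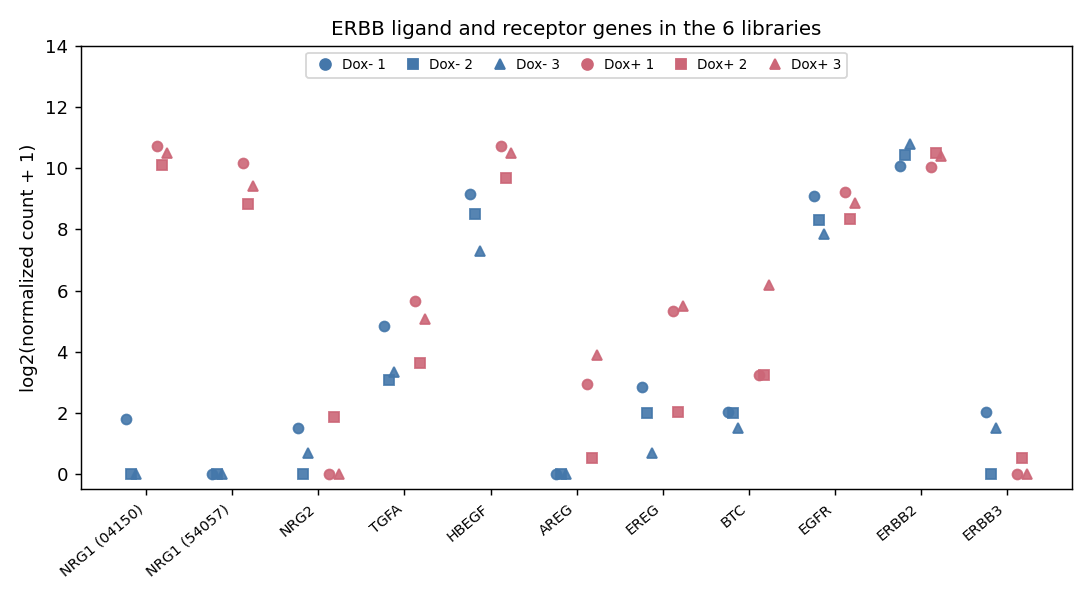
Levels of the 11 gene rows in each library as log2(normalized count + 1), with Dox- libraries in blue, Dox+ libraries in red and the shape giving the library number. The 2 NRG1 rows, marked by the last digits of their identifiers, lie near 0 in Dox- and between 456 and 1694 normalized counts in Dox+ libraries, while EGFR and ERBB2 overlap between the groups.

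Among the EGFR ligands, HBEGF, heparin-binding EGF-like growth factor, had the most reads and was higher in every Dox+ library. It stood at 575, 364 and 155 in Dox- 1, 2 and 3 and at 1691, 812 and 1444 in Dox+ 1, 2 and 3, so the groups did not overlap. The mean went from 365 ± 210 to 1316 ± 453 (n = 3), 3.93-fold on the fitted scale (log2 fold change 1.97, SE 0.47, 95% interval 0.90 to 3.05). In limma it missed the threshold (adjusted p = 0.075). Same-numbered libraries deviated together from their group means, though weakly for number 3 (correlation 0.21), so the number was also fitted as a block. HBEGF then passed (limma adjusted p = 0.0070). Within same-numbered libraries the ratio was 2.94 for number 1, 2.23 for number 2 and 9.33 for number 3. The lowest Dox- library, Dox- 3, thus gave the largest ratio. On the reads themselves, edgeR gave an adjusted p of 0.10 and DESeq2 one of 0.0016.

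EREG, AREG and BTC, which encode epiregulin, amphiregulin and betacellulin, had few reads. With EPGN, the gene of epigen, they are 4 successive protein-coding genes in RefSeq's annotation of ARS-UCD2.0, in the order EPGN, EREG, AREG and BTC. EREG was at 6.13, 2.96 and 0.61 normalized counts in Dox- 1, 2 and 3 and at 38.9, 3.09 and 44.2 in Dox+ 1, 2 and 3. Dox+ 2 lay among the Dox- values, so the groups overlapped. Its fitted difference was 2.45 on the log2 scale (SE 1.08), with a limma adjusted p of 0.48 that became 0.18 with the block. From the pooled reads, 13 in Dox- and 49 in Dox+ cells, the ratio was 4.52 (95% exact counting interval 2.42 to 9.08). The log2 fold change of EREG was 3.57 without Dox+ 2 and 1.84 without Dox+ 3.

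BTC was at 3.07, 2.96 and 1.83 in Dox- 1, 2 and 3 and at 8.46, 8.39 and 72.1 in Dox+ 1, 2 and 3. The groups did not overlap, but Dox+ 3 stood far above the other two. Its log2 fold change of 2.38 (SE 0.94) missed the threshold in limma, with an adjusted p of 0.37, or 0.16 with the block. Leaving out Dox+ 3 brought it to 1.40. From the pooled reads, 10 in Dox- and 55 in Dox+ cells, the ratio was 6.60 with a 95% exact counting interval of 3.33 to 14.5, which leaves out the spread between libraries. AREG had no read in Dox- cells and 4, 1 and 6 reads in Dox+ 1, 2 and 3, worth 6.77, 0.44 and 13.95 normalized counts. With 3 reads taken for each Dox- library, its Dox+ mean was 2.61-fold higher, although the 1 read of Dox+ 2 was itself below that floor. With a mean of 3.53 AREG was below the filter. Fitted with no filter, its limma adjusted p was 0.26.

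EPGN, at the other end of the same row of genes, had 9 reads in Dox- and 3 in Dox+ cells (ratio 0.40, 95% exact counting interval 0.070 to 1.6). Its interval includes 1, and fitted with no filter its limma adjusted p was 0.85. Reads this few cannot show whether the 4 neighbours share 1 pattern, and none of the 2 that could be tested passed. EGF itself had 0 reads in all 6 libraries.

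TGFA, which encodes the ligand that was also added to the medium as protein, was at 27.6, 7.39 and 9.17 in Dox- 1, 2 and 3 and at 49.1, 11.5 and 32.6 in Dox+ 1, 2 and 3. The groups overlapped, although each Dox+ library was above the Dox- library of its number. The log2 fold change of 1.03 (95% interval -0.64 to 2.71) had a limma adjusted p of 0.78, or 0.37 with the block. These counts are of the cells' own transcript.

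**Figure D2:**
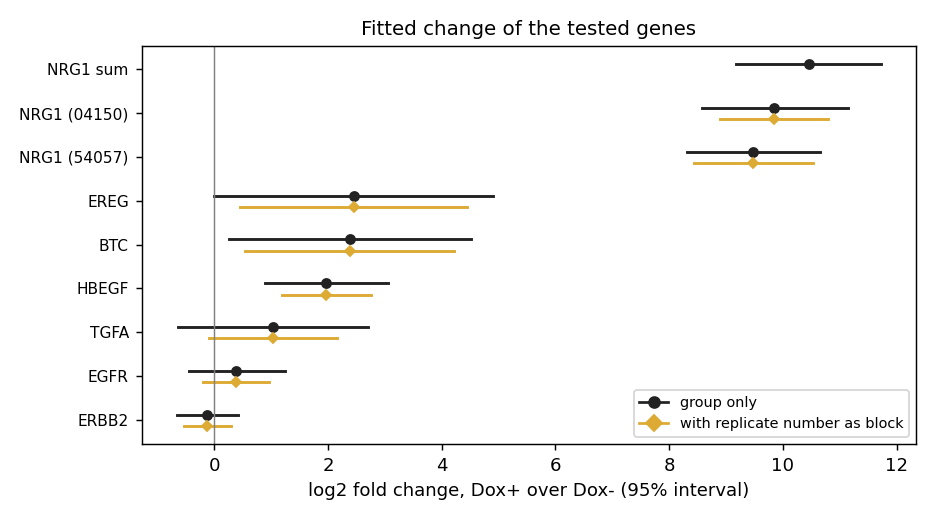
Fitted log2 fold change of Dox+ over Dox- for the 8 tested rows and for the sum of both NRG1 identifiers, with 95% intervals, from limma with group only (black) and with the replicate number as a block (yellow, not drawn for the sum). The NRG1 intervals lie above 8, those of HBEGF and BTC lie above 0 in both fits, and those of TGFA, EGFR and ERBB2 span 0. That of EREG lies above 0 with the block only. The intervals are not adjusted for the number of genes tested, and BTC and EREG passed in neither fit.

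The receptors did not pass in either direction. EGFR was at 548, 315 and 229 normalized counts in Dox- 1, 2 and 3 and at 601, 323 and 463 in Dox+ 1, 2 and 3. Its groups overlapped, and the ratio within numbers was 1.10, 1.03 and 2.02. The log2 fold change was 0.39 (95% interval -0.45 to 1.24, limma adjusted p = 0.85), which leaves room for a fold between 0.73 and 2.35.

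ERBB2, the partner receptor without a ligand, was at 1076, 1390 and 1760 in Dox- 1, 2 and 3 and at 1048, 1458 and 1351 in Dox+ 1, 2 and 3. The means of 1409 ± 342 and 1285 ± 213 (n = 3) lay within the spread of either group. Its log2 fold change was -0.12 (95% interval -0.66 to 0.42, limma adjusted p = 0.93), and the sign turned when Dox- 3 or Dox+ 1 was left out.

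The neuregulin-binding receptors were near the floor. ERBB3 had 5, 0 and 3 reads in Dox- 1, 2 and 3, against 0, 1 and 0 in the Dox+ libraries of those numbers, a ratio of 0.15 with a 95% exact counting interval of 0.0034 to 1.12. It was not tested, with a mean of 0.89 normalized counts. ERBB4, the other receptor that binds neuregulins, had no Dox- read and 4, 6 and 2 reads in Dox+ 1, 2 and 3. Its Dox+ mean of 4.69 ± 2.06 normalized counts (n = 3) was 1.73-fold higher when each Dox- library is taken at 3 reads. The 2 reads of Dox+ 3 were themselves below that floor. ERBB4 was below the filter, and its limma adjusted p was 0.17 in genes with a mean of at least 1 and 0.043 with no filter. In Dox+ cells, therefore, NRG1 was counted with 6156 reads, ERBB3 with 1 and ERBB4 with 12.

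Of the 8 rows that passed the filter, 2 were called higher and 0 lower, both of them NRG1, while 2.88% of all tested genes were called, 2.52% higher and 0.357% lower. With the block 3 rows were higher, NRG1 and HBEGF, against 6.51% of all tested genes called, 4.86% higher and 1.65% lower. EdgeR called 2 rows, against 2.6% of all tested genes, and DESeq2 3, against 5.32%. The groups did not overlap, with Dox+ higher, in 4 of the 8, which were both NRG1 rows, HBEGF and BTC, against 8.88% of all tested genes, with 6.29% of genes lower without overlap. All tested rows but ERBB2, 7 of the 8, were higher in Dox+ in each of the 3 same-numbered pairs, as were 19.5% of all tested genes. At an unadjusted limma p under 0.05 these 4 rows passed, none of them lower, against 10.6% of all tested genes. Both NRG1 rows, EREG and BTC reached the filter only through their Dox+ libraries, and NRG1 counts as 2 rows, so these counts describe the rows and support nothing further.

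The libraries of a group also kept an order in many rows. In 7 of the 8 tested rows, all but ERBB2, Dox+ 2 was the lowest of the Dox+ libraries, as it was in 39% of all tested genes and in 58.1% of the genes called higher. CREB5 was lowest in the same library, at 12413, against 20935 in Dox+ 1 and 21964 in Dox+ 3. Dox- 1 was the highest Dox- library for 6 of the 8, as for 34.6% of all tested genes. Some of these orders rest on few reads. In Dox- 1, 2 and 3 NRG1 (ENSBTAG00000004150) had 4, 0 and 0 reads, EREG 10, 2 and 1, and BTC 5, 2 and 3. BTC also hardly differed between Dox+ 1 and Dox+ 2 (8.46 and 8.39), and NRG1 counts as 2 rows. Dox+ 2 also had the most reads of all libraries, whereas Dox- 1 was neither the deepest nor the shallowest of its group; the part of depth in the pattern was not tested.

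The authors' deposited table of the same comparison gave an adjusted p to 9 of the 11 rows and put 3 under 0.05, where 5.24% of the genes with an adjusted p were higher and 2.05% lower. In the authors' deposited table the log2 fold changes were 10.91 and 13.44 for the NRG1 rows and 1.83 for HBEGF, with adjusted p of 1e-12, 3.2e-09 and 3.9e-07. EREG and BTC each had an adjusted p of 0.12 in the authors' deposited table, with log2 fold changes of 0.31 and 0.37. These are far below the 2.45 and 2.38 of limma. They are also far below the 3.12 and 3.48 of DESeq2 on recovered reads, run here without shrinkage. In the authors' deposited table their standard errors were 0.57 and 0.65, with an unadjusted p of 0.011 for each. Such a p does not follow from those fold changes and errors. The sources used here do not say whether the authors shrank their fold changes.

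Genes that release, restrain or relay ERBB signals were counted as lists. Of 9 tested genes of ligand shedding and trafficking, 0 passed in either direction in limma (adjusted p of 0.53 or more), against 2.88% of all tested genes. None had an unadjusted limma p under 0.05, against 10.6% of all tested genes. With the block, in edgeR and in DESeq2 0 passed as well, against 6.51%, 2.6% and 5.32% of all tested genes. The list included ADAM17, the main protease that frees EGFR ligands, at a log2 fold change of 0.01 (SE 0.46). RHBDF2, the iRhom2 that helps ADAM17 to the cell surface, had 0.52 (SE 0.25), and ADAM19, a protease that can cleave neuregulin, had -0.49 (SE 0.31). The RHBDF2 groups did not overlap, with Dox+ higher, as in 8.88% of all tested genes. The median of the list was 0.01.

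Of 11 tested inhibitors and degradation factors of ERBB receptors, 0 passed in limma, with or without the block, in edgeR or in DESeq2. The shares of all tested genes were 2.88% in limma, 6.51% with the block, 2.6% in edgeR and 5.32% in DESeq2. None of the 11 had an unadjusted limma p under 0.05, against 10.6% of all tested genes. The median of the list was 0.27. SOCS5 and SOCS4, which promote EGFR turnover, had the smallest p, with log2 fold changes of 0.63 (SE 0.32) and 0.90 (SE 0.59). ERRFI1, which encodes the EGFR inhibitor MIG6 and responds to EGFR signals, was at 0.10 (SE 0.24).

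Of 27 tested adaptors and transducers 0 passed in limma, against 2.88% of all tested genes. At an unadjusted limma p under 0.05 there were 2, against 10.6% of all tested genes. PIK3R1, the regulatory subunit of PI3 kinase, was at 562, 460 and 360 normalized counts in Dox- 1, 2 and 3 and at 763, 902 and 886 in Dox+ 1, 2 and 3. Its groups did not overlap, with Dox+ higher, as in 8.88% of all tested genes. The log2 fold change of 0.90 (SE 0.23) had a limma adjusted p of 0.11, and of 0.045 with the block. PIK3R1 was the only gene of the list called with the block, where 6.51% of all tested genes were. EdgeR called 0 genes of the list, against 2.6% of all tested genes, and DESeq2 called 1, PIK3R1, against 5.32%. HRAS, a RAS GTPase, had a log2 fold change of -0.49 (SE 0.20, limma adjusted p = 0.40). The HRAS groups did not overlap either, with Dox+ lower, as in 6.29% of all tested genes. The median was 0.15.

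Among these lists of genes other than ligands and receptors, that of MAP kinase feedback and response had calls in limma without the block. Of 20 tested members, 2 rose, SPRY2 and DUSP6, and 0 fell, where 2.52% of all tested genes were called higher and 0.357% lower. EdgeR called 1 member, against 2.6% of all tested genes, and DESeq2 3, against 5.32%. Limma with the block also called 3, all higher, against 4.86% of all tested genes called higher and 1.65% lower. The median log2 fold change was 0.54. SPRY2, a Sprouty protein that restrains receptor tyrosine kinase signals, was at 969, 414 and 544 in Dox- 1, 2 and 3 and at 3461, 2415 and 3358 in Dox+ 1, 2 and 3. Every Dox+ library was above every Dox- library. The rise was 5.04-fold (limma, log2 fold change 2.33, SE 0.32, adjusted p = 0.0051; with the block 1e-04).

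DUSP6, a phosphatase of ERK, was at 1166, 358 and 331 in Dox- 1, 2 and 3 and at 4050, 1938 and 3693 in Dox+ 1, 2 and 3, again without overlap. It rose 5.93-fold (limma adjusted p = 0.025, and 0.00041 with the block). Leaving out 1 library ended the call in limma for 4 libraries: the adjusted p was 0.095 when Dox- 2 was omitted, 0.10 for Dox- 3, 0.10 for Dox+ 1 and 0.15 for Dox+ 3. EdgeR gave an adjusted p of 0.057. SPRY1, another Sprouty gene and the third of the list to pass with the block, was added after its values were seen. It went from 504 ± 277 to 2043 ± 916 (n = 3), with a limma adjusted p of 0.060 that became 0.0083 in the blocked fit.

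The other 17 members had log2 fold changes from -0.49 (IER3) to 1.09 (DUSP4), and none passed in limma, with or without the block, in edgeR or in DESeq2. DUSP5 and SPRY4, of the same families as DUSP6 and the Sprouty genes, had 0.70 (SE 0.37) and 0.71 (SE 0.64). FOS, an early target of ERK signalling, had 0.09 (SE 0.28), and the ERK-induced factor ETV5 had 0.27 (SE 0.26). EGR1, another early target, had 0.62 (SE 0.40) and was higher in all 3 same-numbered pairs, with a limma adjusted p of 0.73, or 0.052 with the block. Fibroblast growth factors and other receptor tyrosine kinases also act on this list, and its relation to the ERBB ligands was not tested.

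**Figure D3:**
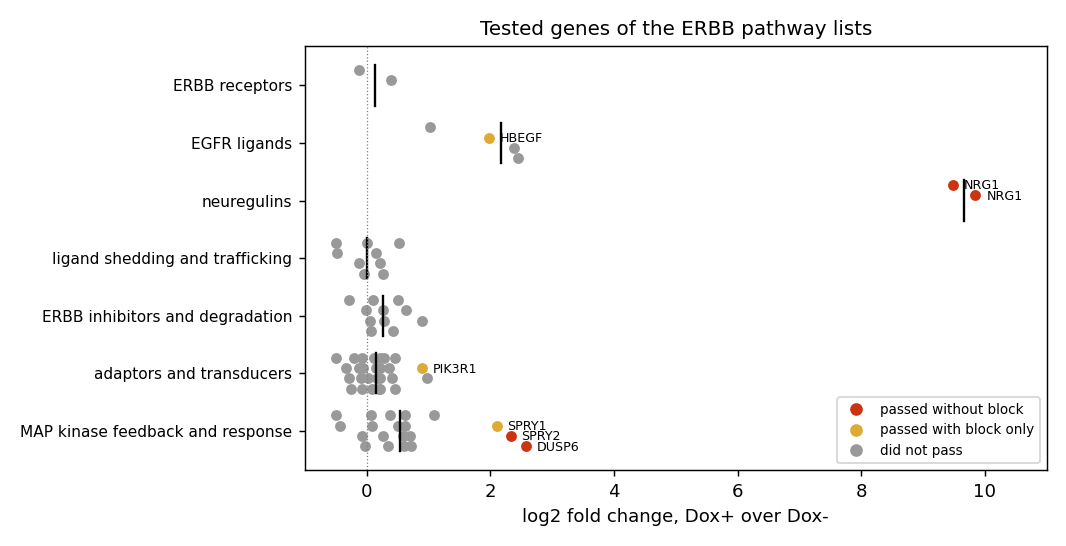
Log2 fold change of each tested gene in the 7 lists of ERBB signalling, coloured by whether it passed limma without the block, with the block only, or not; the vertical bars are list medians. Both NRG1 rows, SPRY2 and DUSP6 passed without the block, and HBEGF, PIK3R1 and SPRY1 passed with it only.

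**Figure D4:**
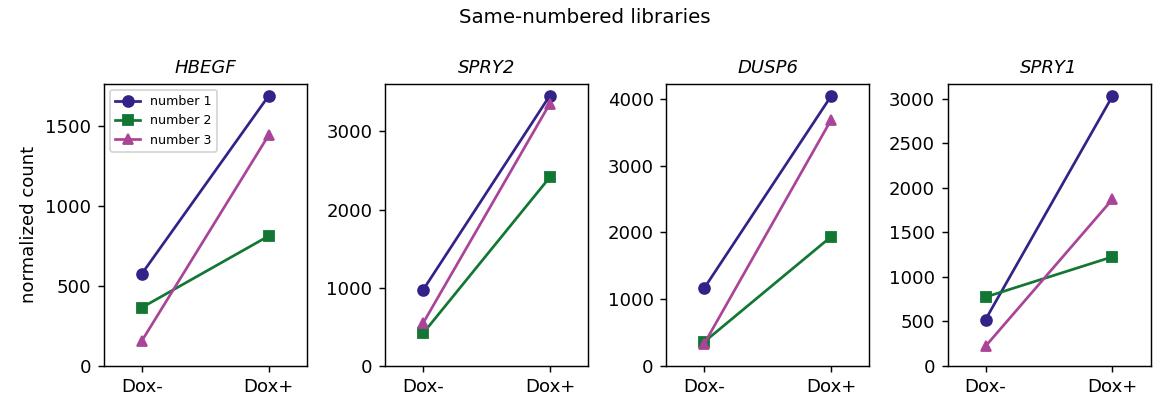
Normalized counts of HBEGF, SPRY2, DUSP6 and SPRY1 in Dox- and Dox+ libraries, with lines joining libraries of the same number and axes starting at 0. All 12 lines go up, and the Dox+ library numbered 2 is the lowest of its group in each panel.

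The 5 tested genes whose log2 levels over the 6 libraries were most like those of NRG1 (ENSBTAG00000004150) were DBNDD2 (Pearson r 0.9998), NLGN1 (0.9983), CHSY3 (0.9976), NTNG1 (0.9972) and CREB5 (0.9971). NLGN1 encodes a synaptic adhesion protein, NTNG1 a netrin-G and CHSY3 a chondroitin sulfate synthase. The other NRG1 identifier had 0.9917, and 37 tested genes outside the set reached 0.99. All these points share 2 widely separated groups, so the coefficients mostly restate the gap between Dox- and Dox+ libraries. CHSY3, for example, was at 556 to 790 in Dox- and at 2219 to 2750 in Dox+ libraries.

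Markers of other cell types that the cultures could hold were also counted. Among Schwann and glial markers, FOXD3 had 0 reads in all libraries and SOX10 had 1 read. S100B, which chondrocytes also express, had a limma adjusted p of 0.80, and GFAP fell (limma adjusted p = 0.014). Of 6 leukocyte and macrophage markers 3 were tested, with a limma adjusted p of 0.72 or more. They summed to 204 to 460 normalized counts in Dox- and 381 to 714 in Dox+ libraries, with ITGAM at 0 and PTPRC at 0 to 2.33. Of 6 epithelial markers 3 were tested, with a limma adjusted p of 0.28 or more. The 6 summed to 102 to 325 in Dox- and 22.9 to 232 in Dox+ libraries, with KRT5 at 0. With the block 2 were lower, CDH1 and KRT8, where 1.65% of all tested genes were. EPCAM, below the filter, went the other way, with 3 reads in Dox- and 21 in Dox+ cells and no overlap between the groups. The 6 endothelial markers summed to 72.2 to 130 and 55.2 to 102, with CLDN5 at 0 and CDH5 at 0 in all but Dox- 1. The 5 markers of smooth muscle and pericytes summed to 1188 to 6783 in Dox- and 5496 to 16611 in Dox+ libraries, mostly from DES (adjusted p of 0.36 in limma, 0.0014 if blocked). RGS5, a pericyte marker below the filter, had no Dox- read and 6, 14 and 2 reads in Dox+ 1, 2 and 3. The limma adjusted p of RGS5 was 0.018 with no filter and 0.071 in genes with a mean of at least 1. The other markers of that list did not rise with them. ACTG2 had a log2 fold change of -0.33 and CNN1 one of 0.34 (limma adjusted p of 0.90 and 0.91), both with overlapping groups. MYH11 had 6 reads in Dox- and 7 in Dox+ cells. The 5 markers of synovial fibroblasts summed to 77968 to 97332 in Dox- and 47116 to 55359 in Dox+ libraries, without overlap. None of the 4 tested passed in limma, but THY1 was lower with the block (adjusted p = 0.0049), and PDPN and THY1 were lower in DESeq2 (adjusted p of 0.028 and 0.019). HTRA4 of the same list had a log2 fold change of 1.53 (limma adjusted p = 0.28). The part of these markers in the results was not tested.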

How the data were processed

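Messenger RNA libraries (KAPA mRNA HyperPrep, Trizol RNA, per the labels' protocols) of 6 cultures were grouped by sample title. The deposited signal is a normalized count per Ensembl gene, made by the authors by dividing counts by a size factor per library; 100% of values above 0 were whole multiples of 1 step within 0.01 read, so reads were recovered. The authors' deposited table gives a mean signal, a log2 fold change with its error and p-values. The submitters' processing notes name STAR 2.5.2b, FastQC 0.11.3, DESeq2, Salmon and MultiQC 1.2, as well as bosTau9 and ARS-UCD1.2 as builds, without role or order. No source used here gives the annotation version or strand setting, so overlapping and antisense genes cannot be told apart.

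Groups were compared with limma 3.58.1 in R 4.3.3 (trended eBayes, two-sided) on log2(normalized count + 1), with group as the only term, in 13180 genes with a mean of at least 10, Benjamini-Hochberg adjusted at 0.05. It was tested on simulated data. The simulated libraries were unpaired and held no changed gene that rose from near absence, so that test does not cover a case like NRG1. Fold changes are on the log2(normalized count + 1) scale, which understates those of low genes. Alternatives were other added counts, filters and scalings, edgeR 4.0.16 and DESeq2 1.42.0 on recovered reads, each library left out, and the replicate number as a block. The numbers were taken to pair the libraries, because deviations from group means correlated over genes within each number (0.65, 0.44 and 0.21). Across numbers the correlations ran from -0.59 to 0.18. The 0.18, of Dox- 3 with Dox+ 2, is close to the 0.21 of number 3, so the pairing of that number is weakly supported. Libraries of a group differed beyond sampling noise (chi-square per degree of freedom of at least 46.1), so each counted as 1 replicate. Members and lists were chosen with earlier results of these data known. Named were the members, CREB5, the other ERBB family genes, the called genes of each list (at most 4; otherwise the 2 of smallest p) and the 5 genes most like NRG1. Marker genes and ERRFI1, ADAM17, FOS, EGR1, ETV5, IER3, DUSP4, DUSP5, SPRY4 and SPRY1 were added after their values were seen. Some marker genes are not reported here.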

Additional observations from a re-analysis of the deposited data

How the results depend on the processing

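Both NRG1 rows and their sum were called under all 19 alternatives, and the summed log2 fold change ranged from 8.54 to 11.20, or from 10.16 to 11.05 with 1 library left out. Over all genes, 332 were higher and 47 lower; 640 and 218 with the replicate block, 542 and 159 in DESeq2, and 139 to 365 and 9 to 72 with 1 library left out, fewest without Dox+ 3 and most without Dox- 1. With the block and without pair 1, 2 or 3, 602, 934 and 917 genes were higher and 188, 276 and 537 lower, fits that leave 1 residual degree of freedom per gene and are a weak check. Of the gene set, 2 rows were called, 3 with the block, in DESeq2 and without Dox- 1, and 4, 5 and 3 with the block and without pair 1, 2 and 3; BTC (adjusted p = 0.029 and 0.016) joined without pair 1 and 2, and EREG (0.00035) without pair 2. The log2 fold change of ERBB2 ran from -0.30 to 0.06 with 1 library left out; it reversed when Dox- 3 (0.06) or Dox+ 1 (0.02) was omitted, and in the blocked fit lacking pair 3 (0.01), and the cause was not tested. HBEGF was called under 6 of 19 alternatives. These were the block, DESeq2, the fit without Dox- 1 (limma adjusted p = 0.014) and the blocked fits without pair 1, 2 or 3, the weak check above. It was not called in edgeR or with other added counts, filters or scalings. Among the named members and signalling genes the block changed no other call than those of HBEGF, PIK3R1 and SPRY1. Total count scaling moved the median of all genes to 0.10 and turned no direction of a tested member. Low reads limit AREG, EREG, BTC, NRG2, ERBB3 and ERBB4.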
